A study of Mus musculus with 12 samples.

Results

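Hyaluronan is a long, unsulphated sugar chain of the extracellular matrix, and 8 genes that make, cut or bind it were followed in mouse lung: the synthases Has1, Has2 and Has3, the hyaluronidases Hyal1 and Hyal2, the receptor Cd44, and the binding proteins Tnfaip6 (TSG-6) and Vcan (versican). All probe sets annotated with exactly 1 of these symbols were taken, which gave 18 probe sets for 7 of the 8 genes, among 34958 probe sets with 1 symbol. Vcan had 8 of them, Cd44 4, Has2 2, and Has1, Has3, Hyal2 and Tnfaip6 1 each. Both probe sets that name Hyal1 also name Naa80, a gene that overlaps it, so that Hyal1 had none of its own. Of the 18 probe sets, 17 passed the filter on low signals. The exception was Vcan 1447887_x_at, whose 12 values lay at or below the lower limit, a log2 signal of 4.37.

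RNA of homogenised left lung was hybridised to 1 Affymetrix Mouse Genome 430 2.0 array per mouse, with 3 male mice, 6 to 8 weeks old, in each of 4 groups. Nfkb1KO-O3 mice were homozygous for the Nfkb1tm1Bal allele (Nfkb1-/-), lacked the p50/p105 subunit of NF-κB, and breathed 0.3 ppm ozone (O3) without pause for 48 h. WT-O3 mice were B6129PF2/J wild type (Nfkb1+/+) after the same exposure, Nfkb1KO-Air mice had the deficiency and breathed filtered air, and WT-Air mice were wild type in filtered air. The 2 strains were bought separately and were not littermates, so that genotype and strain background cannot be told apart. The allele was present in every cell. O3 and air were given in separate chambers, so that chamber and exposure cannot be told apart. The comparisons ask whether hyaluronan genes depend on Nfkb1 in clean air or in O3, and whether O3 alters them.

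The 11 measured markers of lung epithelium were above the lower limit on every array. The median deposited signal was 99.14 to 121.2 on 11 arrays and 180.1 on Nfkb1KO-Air replicate 1, whose rank correlation with the other arrays was 0.915 to 0.93, against 0.947 to 0.969 among those. WT-Air replicate 3 had the highest summed signal of 10 skeletal muscle markers, 38400 against 517 to 9960 on the others. No annotated probe set of Nfkb1 itself was used, so the genotype labels were not checked against the targeted gene. In RNA of lung homogenate, fewer cells of a type and less RNA per cell cannot be told apart.

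Hyaluronan is built at the plasma membrane by the 3 Has enzymes from UDP-glucuronic acid and UDP-N-acetylglucosamine and extruded as it grows. Long chains fill and hydrate the matrix, and shorter fragments, which arise from hyaluronidases or oxidants, are known to act on Cd44 and Toll-like receptors and to contribute to airway hyperresponsiveness after O3. Versican is a large chondroitin sulphate proteoglycan that binds the chain through its N-terminal domain, and TSG-6 moves heavy chains of inter-α-inhibitor onto it.

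Promoter sequences of 4 of the genes are shown as a reference for the values that follow. RefSeq (GRCm38.p6) windows of 300 bases, 250 before the gene's start and 50 from it on, were found for 6 of the 8 genes, with none for Has2 and Has3. They were searched on both strands for AP-1 (TGANTCA), for the cyclic AMP response element (TGACGTCA), for C/EBP (TTNNGNAA), for STAT (TTCNNNGAA) and for the κB consensus, and matches are in capitals. The Vcan and Cd44 windows are shown because their probe sets passed a test, and those of Tnfaip6 and Hyal2, which had no called difference, because they hold an AP-1 and a κB match.
Vcan, chr13:89742463-89742762, minus strand: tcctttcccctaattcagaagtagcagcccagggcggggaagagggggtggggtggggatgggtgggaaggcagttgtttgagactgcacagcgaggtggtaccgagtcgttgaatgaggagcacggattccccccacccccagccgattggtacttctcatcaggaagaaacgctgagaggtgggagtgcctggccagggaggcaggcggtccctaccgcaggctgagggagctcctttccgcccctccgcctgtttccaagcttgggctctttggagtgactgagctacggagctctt
Cd44, chr2:102901616-102901915, minus strand: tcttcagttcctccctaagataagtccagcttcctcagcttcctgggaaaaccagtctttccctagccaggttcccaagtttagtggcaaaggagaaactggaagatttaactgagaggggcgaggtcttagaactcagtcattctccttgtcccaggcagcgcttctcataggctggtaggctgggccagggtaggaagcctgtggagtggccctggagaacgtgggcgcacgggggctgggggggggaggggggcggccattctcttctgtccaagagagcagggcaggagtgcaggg
Tnfaip6, chr2:52037863-52038162, plus strand: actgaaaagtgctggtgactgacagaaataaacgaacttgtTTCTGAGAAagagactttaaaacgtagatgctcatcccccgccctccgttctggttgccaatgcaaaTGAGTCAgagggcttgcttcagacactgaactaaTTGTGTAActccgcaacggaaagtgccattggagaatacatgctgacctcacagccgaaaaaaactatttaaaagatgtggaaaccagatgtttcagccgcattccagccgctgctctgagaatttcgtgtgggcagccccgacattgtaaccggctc
Hyal2, chr9:107568913-107569212, plus strand: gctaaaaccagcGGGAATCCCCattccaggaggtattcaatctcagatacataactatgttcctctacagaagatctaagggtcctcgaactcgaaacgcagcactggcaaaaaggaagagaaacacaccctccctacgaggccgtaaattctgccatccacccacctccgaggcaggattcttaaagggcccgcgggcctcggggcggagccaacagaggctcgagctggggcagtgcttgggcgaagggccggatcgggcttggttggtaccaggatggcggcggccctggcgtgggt
Neither the Vcan nor the Cd44 window held any of these motifs. The Tnfaip6 window held a STAT match at -209 to -201, an AP-1 match at -142 to -136 and a C/EBP match at -108 to -101, counted from 0 at the start. The Hyal2 window held the κB match at -238 to -229. The Has1 window held a cyclic AMP response element at -83 to -76 and 2 C/EBP matches, and the Hyal1 window held none. Among all 32851 windows of the same length, 7.81% held AP-1, 5.8% the κB consensus, 1.79% the cyclic AMP response element, 40.7% C/EBP and 8.3% STAT. The motifs do not overlap in these windows. A match is a string of letters and not a measured site.

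No hyaluronan gene was called between genotypes, and the called differences followed O3. In WT lungs, 1 Vcan probe set of the 17 tested rose after O3 at an adjusted p under 0.05, where 3.23% of all 42559 probe sets were called. In Nfkb1-deficient lungs, 0 of 17 were called, where 3.59% of all were. When both genotypes were pooled, a comparison chosen after the values had been seen, 1 Cd44 and 2 Vcan probe sets rose, 3 of 17 against 10.4% of all. The median O3 difference of the 17 was 0.56 in WT lungs, against a median of 0 over all probe sets, and 0.21 in Nfkb1-deficient lungs, against 0. Most of the 17 are probe sets of Vcan and Cd44, so these medians do not weigh the genes equally. With 1 probe set per gene, differences ran from -1.99 (Has3) to 0.77 (Vcan) in WT lungs. In Nfkb1-deficient lungs they ran from -2.2 (Has3) to 0.77 (Has1). All differences are on the log2 scale, each with its standard error from limma, with n = 3 arrays in each group and p-values carry a Benjamini-Hochberg adjustment for every probe set tested.

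**Figure D1:**
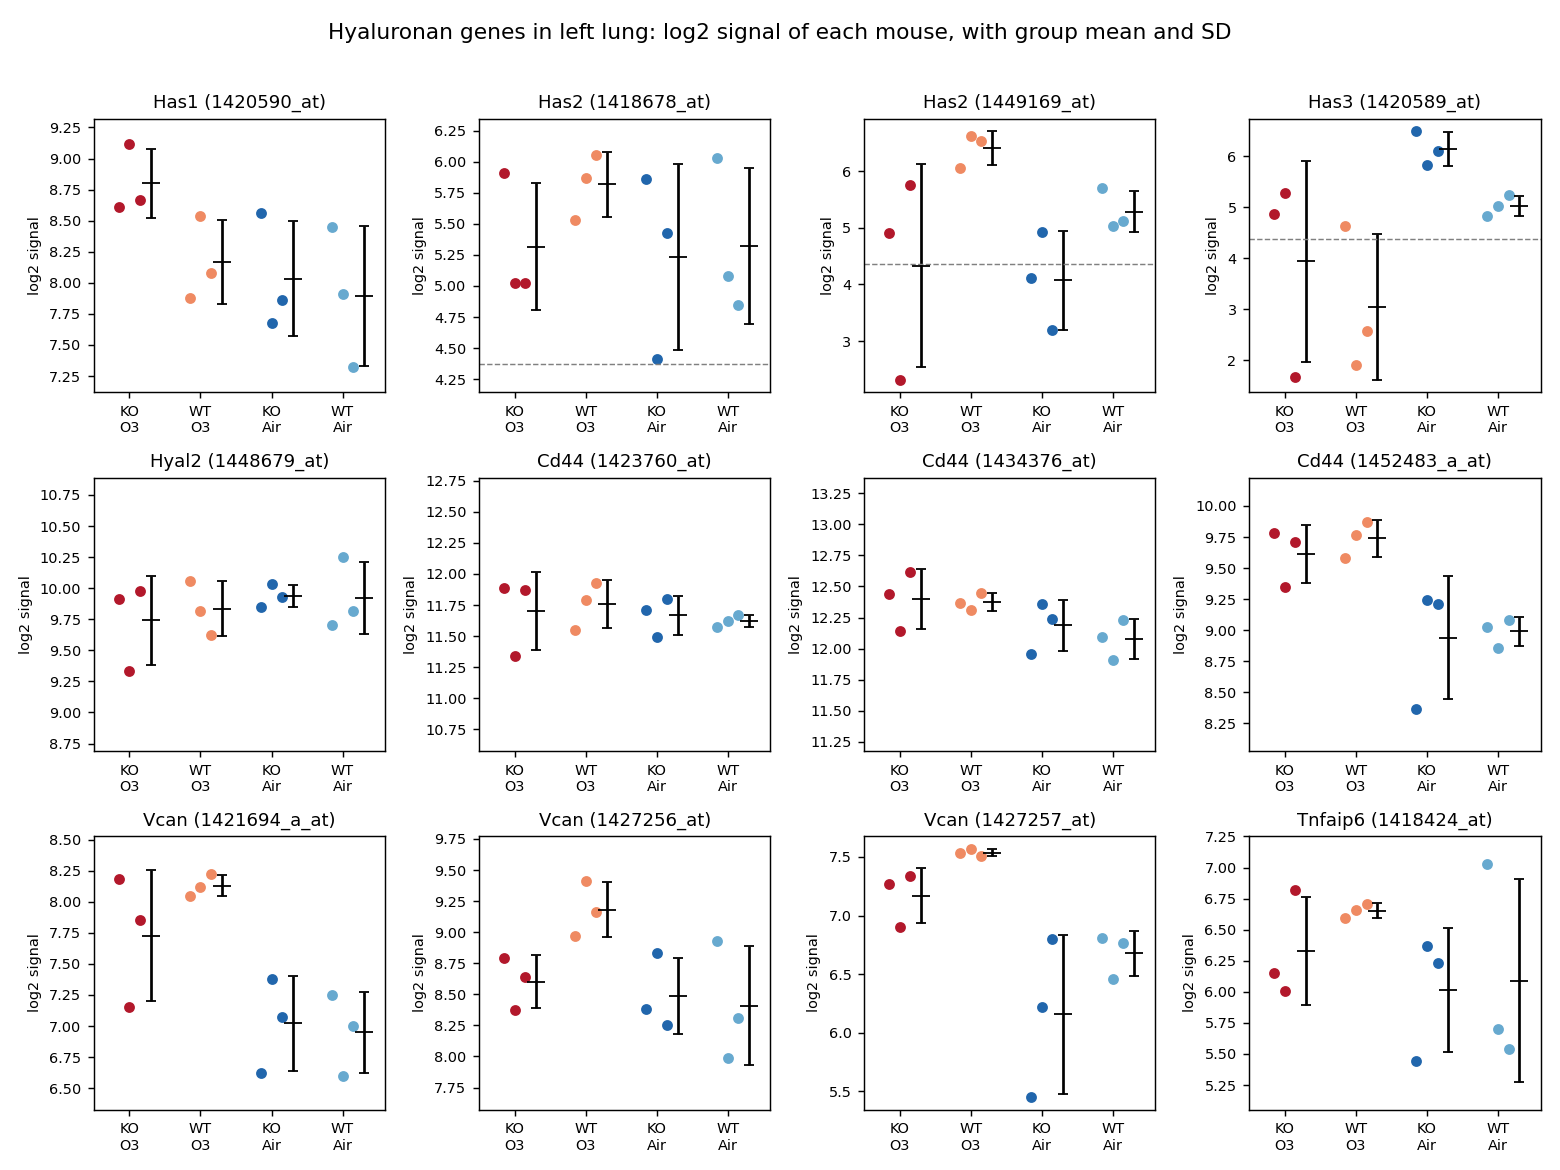
Log2 signal (y axis) of each of the 3 mice per group (x axis, KO for Nfkb1KO) for the 12 probe sets with fewer than 5 values at or below the lower limit. Coloured points are mice in the order of their numbers, black bars are the group mean and SD, and the dashed line, drawn where it falls in the panel, is the lower limit of 4.37. The WT-O3 values of Vcan 1421694_a_at, 8.05 to 8.22, all lie above the WT-Air values, 6.6 to 7.25.

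Versican, the hyaluronan-binding proteoglycan, had the only called O3 difference within a genotype. Vcan 1421694_a_at had log2 signals of 8.18, 7.15 and 7.85 in Nfkb1KO-O3 lungs, 8.05, 8.12 and 8.22 in WT-O3 lungs, 6.62, 7.38 and 7.07 in Nfkb1KO-Air lungs, and 7.25, 6.6 and 7.0 in WT-Air lungs. WT-O3 mice were above all WT-Air mice, whereas Nfkb1KO-O3 replicate 2 lay among the Nfkb1KO-Air values. In WT lungs the probe set rose by 1.18 ± 0.28 (2.26-fold, 95% interval 0.57 to 1.79, adjusted p = 0.042). In Nfkb1-deficient lungs the difference was 0.7 ± 0.28 (adjusted p = 0.21). The difference between these O3 responses, Nfkb1-deficient minus WT, was -0.48 ± 0.4 with a 95% interval of -1.34 to 0.39, so a smaller response without Nfkb1 was not shown. The call in WT lungs was lost when any of 8 of the 12 arrays was left out in turn. The difference then ranged from 1.0 to 1.33 over the 12 fits and the adjusted p from 0.024 to 0.14. The arrays whose removal ended it were the 3 WT-Air and the 3 WT-O3 arrays, Nfkb1KO-Air replicate 3 and Nfkb1KO-O3 replicate 3. Without Nfkb1KO-Air replicate 1 and WT-Air replicate 3 together it was 1.2 with an adjusted p of 0.06.

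A Vcan probe set of lower signal, 1427257_at, gave 7.27, 6.9 and 7.34 in Nfkb1KO-O3 lungs, 7.53, 7.57 and 7.51 in WT-O3 lungs, 5.45, 6.22 and 6.8 in Nfkb1KO-Air lungs, and 6.81, 6.46 and 6.77 in WT-Air lungs. In both genotypes every O3 mouse was above every air mouse. The O3 difference was 1.01 ± 0.31 in Nfkb1-deficient lungs (adjusted p = 0.092) and 0.85 ± 0.31 in WT lungs (adjusted p = 0.17). The lowest value, 5.45, came from Nfkb1KO-Air replicate 1. Without that array the difference in Nfkb1-deficient lungs was 0.66 (adjusted p = 0.21), and that in WT lungs, with its value of 0.85 unmoved, passed the test (adjusted p = 0.044).

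The brightest Vcan probe set, 1427256_at, had 8.79, 8.37 and 8.64 in Nfkb1KO-O3 lungs, 8.97, 9.41 and 9.16 in WT-O3 lungs, 8.38, 8.83 and 8.25 in Nfkb1KO-Air lungs, and 8.93, 7.99 and 8.31 in WT-Air lungs. All WT-O3 values were above those of the Nfkb1KO-O3 group, and they cleared the WT-Air group only narrowly, with WT-Air replicate 1 at 8.93. The O3 difference was 0.11 ± 0.23 in Nfkb1-deficient lungs and 0.77 ± 0.23 in WT lungs (adjusted p = 0.1). After O3 the genotype difference was -0.58 ± 0.23 (adjusted p = 0.54). The interaction was -0.66 ± 0.33 with a 95% interval of -1.37 to 0.06 (adjusted p = 0.93). Without WT-Air replicate 1 the difference in WT lungs was 1.03 (adjusted p = 0.035).

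The other 4 tested Vcan probe sets lay at or below the lower limit on 5 to 11 of the 12 arrays, and none was called in any comparison. Their O3 differences in WT lungs ran from -0.88 to 1.08, with no common direction. Over both genotypes, 1421694_a_at rose by 0.94 ± 0.2 (adjusted p = 0.0095) and 1427257_at by 0.93 ± 0.22 (adjusted p = 0.015), while 1427256_at differed by 0.44 ± 0.17 (adjusted p = 0.12). The first and the second of these kept their call in all 12 fits that left out 1 array, with differences of 0.83 to 1.08 and 0.75 to 1.09. They did not when each gene was reduced to 1 value, either that of its brightest probe set (0.44, adjusted p = 0.098) or the mean of its probe sets (0.27, adjusted p = 0.54). That mean gives equal weight to the 4 dim probe sets, whose differences over both genotypes ran from -0.62 to 0.54.

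Cd44, the main cell surface receptor of hyaluronan, is expressed on leukocytes and on epithelial and mesenchymal cells. Its probe set 1452483_a_at had 9.78, 9.35 and 9.71 in Nfkb1KO-O3 lungs, 9.58, 9.77 and 9.87 in WT-O3 lungs, 8.37, 9.24 and 9.21 in Nfkb1KO-Air lungs, and 9.03, 8.86 and 9.08 in WT-Air lungs. Every O3 mouse was above every air mouse of either genotype. Within a genotype neither difference was called, at 0.67 ± 0.21 in Nfkb1-deficient lungs (1.6-fold, adjusted p = 0.095) and 0.75 ± 0.21 in WT lungs (1.69-fold, adjusted p = 0.071). Over both genotypes the probe set rose by 0.71 ± 0.15 (1.64-fold, 95% interval 0.4 to 1.03, adjusted p = 0.0077). The O3 responses differed by -0.08 ± 0.29, with an interval of -0.71 to 0.55. Nfkb1KO-Air replicate 1 was again the lowest array, and without it the differences were 0.39 in Nfkb1-deficient lungs (adjusted p = 0.22), 0.75 in WT lungs (adjusted p = 0.0079) and 0.57 over both (adjusted p = 0.0037).

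The brighter Cd44 probe sets had smaller O3 differences. Cd44 1434376_at had 12.44, 12.14 and 12.62 in Nfkb1KO-O3 lungs, 12.37, 12.31 and 12.45 in WT-O3 lungs, 11.96, 12.36 and 12.24 in Nfkb1KO-Air lungs, and 12.09, 11.91 and 12.23 in WT-Air lungs. WT-O3 and WT-Air values did not overlap, with a difference of 0.3 ± 0.13 (adjusted p = 0.28), and the Nfkb1KO groups did overlap, at 0.21 ± 0.13 (adjusted p = 0.43). Cd44 1423760_at lay between 11.34 and 11.93 on all arrays, with O3 differences of 0.04 ± 0.14 in Nfkb1-deficient and 0.14 ± 0.14 in WT lungs. The last, 1443265_at, was at or below the limit on 11 of 12 arrays. The transcript forms that each one detects were not analysed here. The mean of the Cd44 probe sets rose by 0.54 ± 0.15 over both genotypes (adjusted p = 0.044), whereas 1434376_at alone differed by 0.26 ± 0.09 (adjusted p = 0.1). That mean gives equal weight to the dim 1443265_at, which differed by 1.11 ± 0.85 over both genotypes (adjusted p = 0.48). The bright 1423760_at differed by 0.09 ± 0.1 (adjusted p = 0.67).

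Markers of cell types that express these genes were read beside them. The 10 measured of 12 macrophage and monocyte markers had summed signals of 25100 to 27200 in Nfkb1KO-O3 lungs, 23000 to 25100 in WT-O3 lungs, 22200 to 25300 in Nfkb1KO-Air lungs and 20000 to 24400 in WT-Air lungs. The 10 fibroblast markers summed to 50900 to 54900 in Nfkb1KO-O3, 57000 to 60900 in WT-O3, 57700 to 63800 in Nfkb1KO-Air and 65000 to 71800 in WT-Air lungs. Fibroblast sums were lower in each O3 group than in the air group of its genotype. The 8 markers of smooth muscle and pericytes summed to 17100 to 19100 in Nfkb1KO-O3, 18900 to 24000 in WT-O3, 27100 to 32600 in Nfkb1KO-Air and 21000 to 30700 in WT-Air lungs. No marker of these lists was at or below the limit on all arrays, and the part of cell composition in the Vcan and Cd44 differences was not tested.

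The synthases showed no called change, and their differences pointed different ways. Has1 had 8.61, 9.12 and 8.67 in Nfkb1KO-O3 lungs, 7.88, 8.54 and 8.08 in WT-O3 lungs, 8.56, 7.68 and 7.86 in Nfkb1KO-Air lungs, and 8.45, 7.91 and 7.32 in WT-Air lungs. The 3 Nfkb1KO-O3 mice were the highest of the 12, though the lowest of them exceeded Nfkb1KO-Air replicate 1 by little. The O3 difference was 0.77 ± 0.3 in Nfkb1-deficient lungs (adjusted p = 0.19) and 0.27 ± 0.3 in WT lungs (adjusted p = 0.74). After O3 the genotype difference was 0.64 ± 0.3 (adjusted p = 0.66).

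Has2, the synthase that mouse heart development requires, was dim. Its probe set 1449169_at had 4.9, 2.32 and 5.76 in Nfkb1KO-O3 lungs, 6.06, 6.62 and 6.53 in WT-O3 lungs, 4.11, 4.93 and 3.19 in Nfkb1KO-Air lungs, and 5.7, 5.04 and 5.12 in WT-Air lungs. Nfkb1-deficient mice lay below wild-type mice of the same exposure without overlap, and 3 of the 6 Nfkb1-deficient values were under the lower limit. After O3 the signal was at least 2.63-fold lower in Nfkb1-deficient lungs, with a fitted difference of -2.08 ± 0.75 (adjusted p = 0.44). That size rested on Nfkb1KO-O3 replicate 2, the array at 2.32, and without it the difference was -1.07 (adjusted p = 0.93), below the bound just given. With 16 added to each signal before log2 it was -1.3. In air the signal was at least 1.66-fold lower, with a fitted difference of -1.21 ± 0.75 (adjusted p = 0.65), which was -0.77 without Nfkb1KO-Air replicate 3 and -0.71 with 16 added. The other Has2 probe set did not show this split. Has2 1418678_at had 5.91, 5.02 and 5.02 in Nfkb1KO-O3, 5.53, 5.87 and 6.05 in WT-O3, 5.86, 4.41 and 5.43 in Nfkb1KO-Air, and 6.03, 5.08 and 4.85 in WT-Air lungs, and the groups overlapped in every comparison. Its genotype difference was -0.49 ± 0.48 after O3 and -0.08 ± 0.48 in air.

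Has3, which is known to make shorter chains in vitro, had lower values after O3. It had 4.86, 5.28 and 1.68 in Nfkb1KO-O3 lungs, 4.64, 1.91 and 2.58 in WT-O3 lungs, 6.49, 5.83 and 6.1 in Nfkb1KO-Air lungs, and 4.83, 5.02 and 5.23 in WT-Air lungs. O3 and air did not overlap in either genotype, and 3 of the 6 O3 values were under the lower limit. With O3 the Has3 signal of Nfkb1-deficient lungs was lower by at least 2.46-fold (fitted difference -2.2 ± 0.89, adjusted p = 0.21), and that of WT lungs was at least 1.48-fold lower (-1.99 ± 0.89, adjusted p = 0.29). Without Nfkb1KO-O3 replicate 3, the array at 1.68, the difference in Nfkb1-deficient lungs was -1.07 (adjusted p = 0.51), again below the bound. With 16 added to each signal before log2 it was -1.25 in Nfkb1-deficient and -0.9 in WT lungs. Over both genotypes the difference was -2.09 ± 0.63 with an adjusted p of 0.051 over all probe sets. With 1 probe set per gene, over 17569 genes, the adjusted p was 0.043, though the unadjusted limma p was higher (0.006 against 0.0053). In air the Nfkb1-deficient mice lay above the wild-type mice, with a difference of 1.11 ± 0.89 (adjusted p = 0.74).

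Hyal2, a membrane-anchored hyaluronidase that cuts long chains, stayed between 9.33 and 10.25 on all arrays. Its O3 difference was -0.2 ± 0.18 in Nfkb1-deficient lungs and -0.09 ± 0.18 in WT lungs, with 95% intervals of -0.6 to 0.2 and -0.49 to 0.31. Tnfaip6, an inflammation-induced gene, had 6.15, 6.01 and 6.82 in Nfkb1KO-O3 lungs, 6.59, 6.66 and 6.71 in WT-O3 lungs, 5.44, 6.37 and 6.23 in Nfkb1KO-Air lungs, and 7.03, 5.7 and 5.54 in WT-Air lungs. The groups overlapped, and WT-Air replicate 1 was the highest of all 12. The O3 difference was 0.31 ± 0.41 in Nfkb1-deficient lungs (adjusted p = 0.76) and 0.56 ± 0.41 in WT lungs (adjusted p = 0.58).

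**Figure D2:**
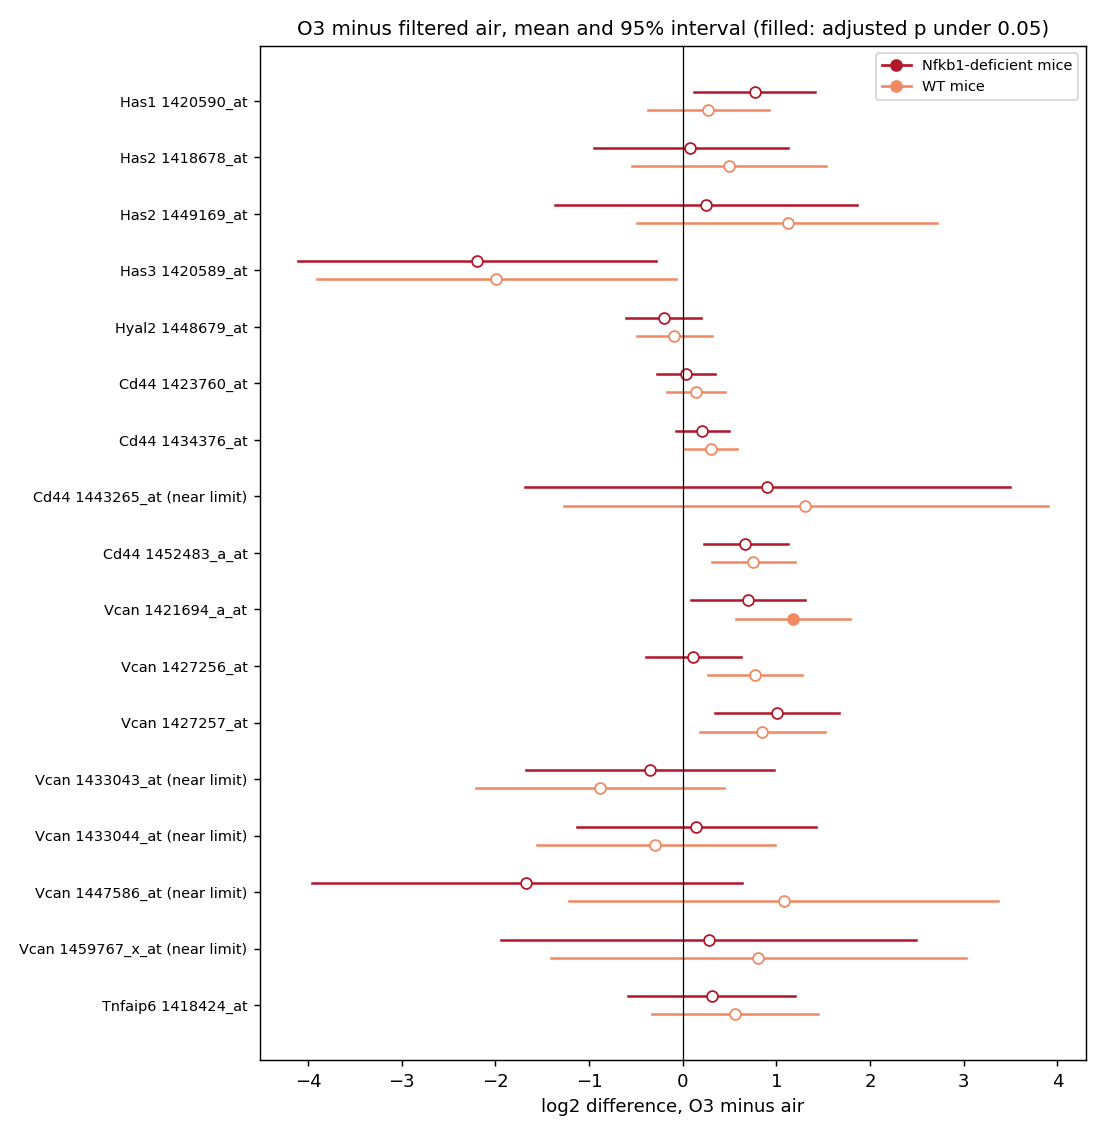
Log2 difference of O3 minus air (x axis) for the 17 tested probe sets (y axis), with Nfkb1-deficient mice above WT mice in each row. Points are differences, lines are 95% intervals from the linear model, and a filled point has an adjusted p under 0.05. The only filled point is Vcan 1421694_a_at in WT mice, at 1.18, and rows named near limit had 5 or more values at or below 4.37.

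Counted over the members, O3 and air did not overlap for 4 of 17 probe sets in Nfkb1-deficient lungs (Has1, Has3, Cd44 1452483_a_at and Vcan 1427257_at), against 21.9% of all probe sets. In WT lungs the count was 7 of 17 against 23.7%, and it was made up of Has2 1449169_at, Has3, 2 Cd44 and 3 Vcan probe sets. An unadjusted p under 0.05 was reached by 5 of 17 in Nfkb1-deficient lungs, where 18.1% of all probe sets reached it, and by 6 of 17 in WT lungs, where 15.9% did. Probe sets of 1 gene share their RNA, so that the 3 Vcan probe sets are not separate evidence.

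Between the genotypes no hyaluronan probe set was called. In air 0 of 17 were called, against 0.183% of all, and 0 had an unadjusted p under 0.05, against 9.3% of all. After O3 0 of 17 were called, against 0.409%, and 2 had an unadjusted p under 0.05, Has2 1449169_at and Vcan 1427256_at, against 7.69%. The groups did not overlap for 3 probe sets in air (Has2 1449169_at, Has3 and the dim Vcan 1459767_x_at), against 12.2% of all, and for 5 after O3, against 16.7%. Those after O3 were Has1, which was higher in Nfkb1-deficient lungs, Has2 1449169_at, Vcan 1427256_at and Vcan 1427257_at, which were lower, and the dim Vcan 1447586_at, whose 6 values were all at or below the lower limit and carry no direction. The median genotype difference over the 17 was -0.1 after O3 and 0.07 in air, against -0.01 for all probe sets in both. The interaction was called for 0 of 17, against 0.0188% of all, and had an unadjusted p under 0.05 for 0 of 17, against 5.09%.

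**Figure D3:**
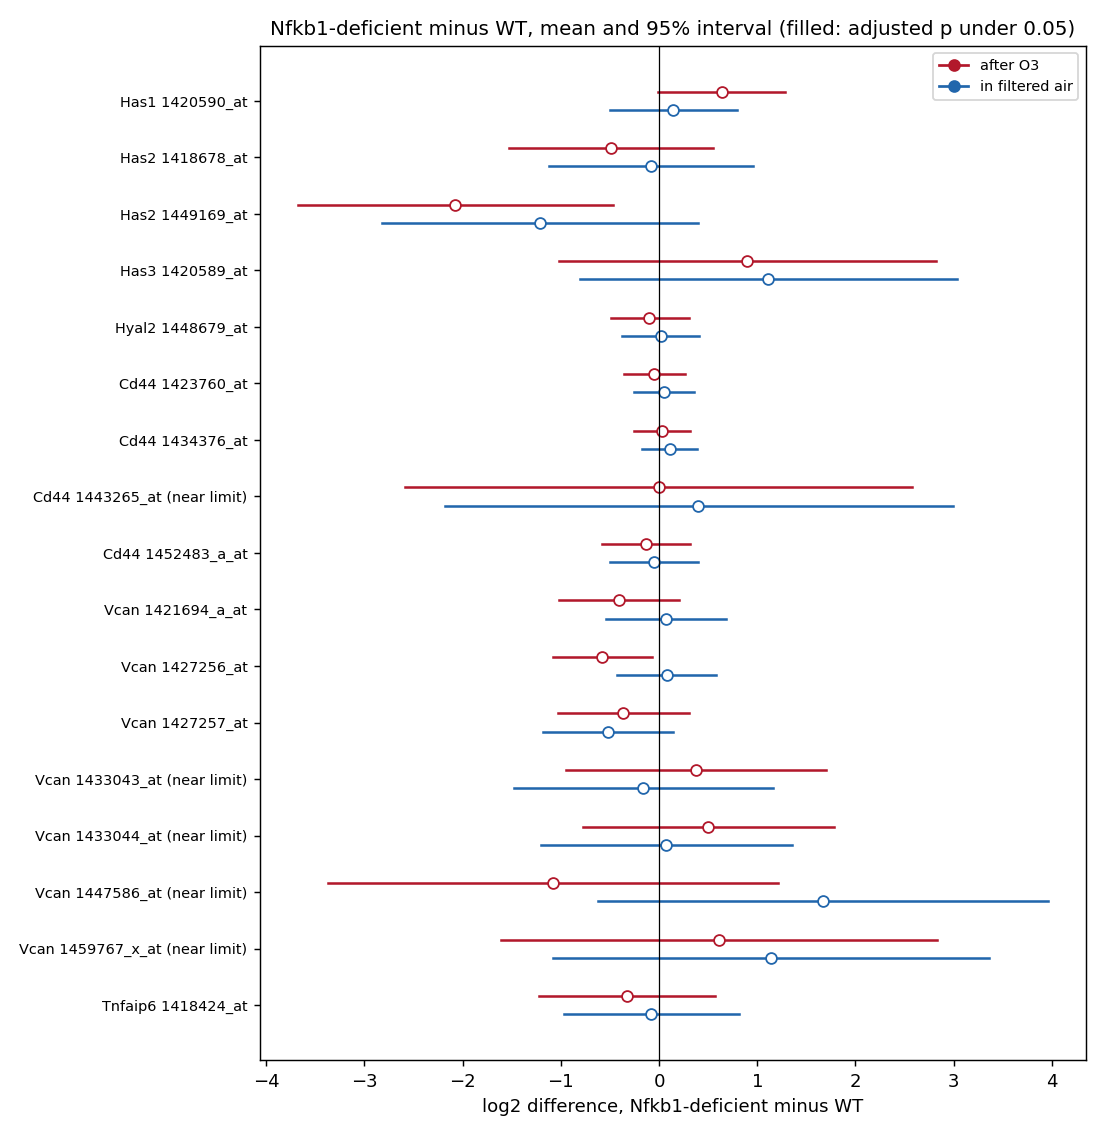
Log2 difference of Nfkb1-deficient minus WT mice (x axis) for the 17 tested probe sets (y axis), after O3 above and in filtered air below in each row. Points are differences and lines are 95% intervals from the linear model. No point is filled, since none had an adjusted p under 0.05, and the intervals of Has2 1449169_at and Vcan 1427256_at after O3 lie below 0.

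Around the 8 members, 64 other genes, named pathway genes here, were listed by role. Of these 60 were measured, with the brightest probe set standing for each gene. The roles were hyaluronan breakdown, UDP-sugar synthesis, hyaluronan receptors with Toll-like receptor genes, hyaluronan- or versican-binding matrix proteins, versican-cleaving proteases and Cd44 partners. Many of these genes neither make nor cut hyaluronan. After O3 in Nfkb1-deficient lungs 5 rose and 4 fell, where 2.65% of all 17569 genes rose and 2.11% fell. In WT lungs 5 rose and 5 fell, where 2.53% rose and 1.79% fell. The lists were chosen with earlier results of these data known, so that these counts are no test of the lists. The median difference of the 60 was 0.01 in Nfkb1-deficient and 0.03 in WT lungs. No gene was called between genotypes after O3 (0.626% of all genes), in air (0.262%) or for the interaction (0.0342%). An unadjusted p under 0.05 was reached by 8 of the 60 after O3 (9.37% of all genes), by 10 in air (11.4%) and by 7 for the interaction (6.12%).

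Of the versican-binding matrix proteins, tenascin C rose and fibulin 1 fell. Tnc (tenascin C), a glycoprotein of injured and remodelling matrix that binds versican, had 9.83, 9.58 and 10.68 in Nfkb1KO-O3 lungs, 10.84, 10.78 and 10.9 in WT-O3 lungs, 7.56, 8.68 and 8.41 in Nfkb1KO-Air lungs, and 9.23, 8.64 and 8.92 in WT-Air lungs. O3 mice exceeded all air mice, and Tnc rose by 1.81 ± 0.29 in Nfkb1-deficient lungs (3.52-fold, adjusted p = 0.006) and by 1.91 ± 0.29 in WT lungs (3.76-fold, adjusted p = 0.0045). Fbln1 (fibulin 1), an elastic fibre protein that also binds versican, had 9.38, 9.41 and 9.48 in Nfkb1KO-O3 lungs, 9.67, 9.58 and 9.78 in WT-O3 lungs, 10.7, 11.14 and 10.74 in Nfkb1KO-Air lungs, and 11.48, 11.12 and 10.83 in WT-Air lungs. Every O3 mouse lay below every air mouse, and Fbln1 fell by 1.43 ± 0.16 in Nfkb1-deficient lungs (adjusted p = 0.0011) and by 1.47 ± 0.16 in WT lungs (adjusted p = 0.00054). These were the 2 called genes among the 22 measured matrix proteins, members included, each read by its brightest probe set. For Vcan that is 1427256_at and not the called 1421694_a_at. The heavy chain gene Itih4 differed by 0.99 ± 0.28 in WT lungs without a call (adjusted p = 0.078).

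The proteases that cleave versican split likewise, with 1 rise and 1 fall among 7 in each genotype. Adamts4 had 7.85, 7.35 and 8.67 in Nfkb1KO-O3 lungs, 8.74, 8.33 and 8.02 in WT-O3 lungs, 4.44, 6.2 and 4.88 in Nfkb1KO-Air lungs, and 6.38, 5.25 and 5.88 in WT-Air lungs. It rose by 2.79 ± 0.46 in Nfkb1-deficient lungs (6.89-fold, adjusted p = 0.007) and by 2.53 ± 0.46 in WT lungs (5.77-fold, adjusted p = 0.012), with no overlap of O3 and air. Adamts5 had 8.88, 9.26 and 9.09 in Nfkb1KO-O3 lungs, 8.74, 8.63 and 8.89 in WT-O3 lungs, 9.85, 9.78 and 9.5 in Nfkb1KO-Air lungs, and 9.93, 9.49 and 9.71 in WT-Air lungs. It fell by 0.64 ± 0.15 in Nfkb1-deficient lungs (adjusted p = 0.037) and by 0.96 ± 0.15 in WT lungs (adjusted p = 0.0053). The interaction was 0.26 ± 0.66 for Adamts4 and 0.32 ± 0.21 for Adamts5.

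Among the 11 receptors and their adaptors, Cd44 included, 2 rose and 1 fell in Nfkb1-deficient lungs, and 1 rose and 2 fell in WT lungs. Stab1 (stabilin 1), a scavenger receptor of macrophages and sinusoidal endothelium, fell by 0.93 ± 0.21 in Nfkb1-deficient lungs (adjusted p = 0.03) and by 1.33 ± 0.21 in WT lungs (adjusted p = 0.0055). Myd88, the adaptor of Toll-like receptors, rose by 0.45 ± 0.08 in Nfkb1-deficient lungs (adjusted p = 0.01) and by 0.43 ± 0.08 in WT lungs (adjusted p = 0.014). Tlr2 rose by 0.67 ± 0.16 in Nfkb1-deficient lungs (adjusted p = 0.034) and differed by 0.41 ± 0.16 in WT lungs (adjusted p = 0.2). Layn (layilin), a membrane receptor of hyaluronan, differed by -0.35 ± 0.22 in Nfkb1-deficient lungs (adjusted p = 0.45) and fell by 1.1 ± 0.22 in WT lungs (adjusted p = 0.018). For neither gene was the interaction called, at 0.26 ± 0.22 for Tlr2 and 0.75 ± 0.31 for Layn (adjusted p = 0.93 for both). Hmmr, a hyaluronan receptor that also serves the mitotic spindle, differed by -0.32 ± 0.3 in Nfkb1-deficient and by 1.15 ± 0.3 in WT lungs (adjusted p = 0.058). The interaction was not called for Hmmr either. The 7 measured of 8 markers of cycling cells had summed signals of 1120 to 2630 in Nfkb1KO-O3, 3040 to 3790 in WT-O3, 908 to 2420 in Nfkb1KO-Air and 1170 to 1550 in WT-Air lungs, and their part in the Hmmr difference was not tested.

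Of the 9 genes of UDP-sugar synthesis, 1 rose in Nfkb1-deficient lungs and 2 in WT lungs. Gnpnat1, which acetylates glucosamine 6-phosphate on the way to UDP-N-acetylglucosamine, rose by 0.69 ± 0.12 in Nfkb1-deficient lungs (adjusted p = 0.01) and by 0.52 ± 0.12 in WT lungs (adjusted p = 0.042). Pgm3, the mutase that acts after it, differed by 0.19 ± 0.15 in Nfkb1-deficient lungs (adjusted p = 0.58) and rose by 0.75 ± 0.15 in WT lungs (adjusted p = 0.02), with an uncalled interaction of -0.57 ± 0.22 (adjusted p = 0.93). Among 7 measured genes of hyaluronan breakdown, the lysosomal hexosaminidase subunit Hexa fell by 0.38 ± 0.09 in Nfkb1-deficient lungs (adjusted p = 0.038) and by 0.46 ± 0.09 in WT lungs (adjusted p = 0.016), and none rose. With arrays centred on their medians in place of quantile normalisation, the Hexa difference in Nfkb1-deficient lungs was 0.08, of the opposite sign. Cemip, a hyaluronan-binding protein needed for its depolymerisation, was at least 2.7-fold higher after O3 in Nfkb1-deficient lungs without a call (adjusted p = 0.065), with 2 of the 3 Nfkb1KO-Air values at or below the lower limit. Mean log2 signals of Cemip were 6.08 in Nfkb1KO-O3, 6.06 in WT-O3, 4.26 in Nfkb1KO-Air and 5.37 in WT-Air lungs. None of the 8 measured genes of Cd44 partners, such as ezrin and Mmp9, was called in either genotype.

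Several of these pathway calls depended on single arrays or settings, of which 21 were tried, 12 of them leaving out 1 array. In WT lungs Tnc, Fbln1 and Stab1 were called in all 21. Gnpnat1 in WT lungs was called in 7 of 21 and in 3 of the 12, which were those without WT-Air replicate 2, Nfkb1KO-Air replicate 1 or Nfkb1KO-Air replicate 2, and its difference ranged from 0.38 to 0.63. Adamts5 in Nfkb1-deficient lungs was called in 9 of 21 and in 5 of the 12, which were those without a WT-Air array, Nfkb1KO-Air replicate 3 or Nfkb1KO-O3 replicate 2, and its difference was -0.28 with arrays centred on medians. Hexa was called in 10 of 21 in Nfkb1-deficient lungs, where removing a WT-O3 array, Nfkb1KO-Air replicate 2 or 3, or Nfkb1KO-O3 replicate 1 or 2 ended the call, and its difference ranged from -0.46 to 0.08, with its sign changed under 1 setting. In WT lungs Hexa was called in 14 of 21, and removing a WT-O3 array or WT-Air replicate 1 or 3 ended it. Stab1 in Nfkb1-deficient lungs was called in 13 of 21, and removing Nfkb1KO-Air replicate 1 or 3 or Nfkb1KO-O3 replicate 1 or 2 ended it. Tlr2 in Nfkb1-deficient lungs was called in 15 of 21, and removing Nfkb1KO-Air replicate 1 or Nfkb1KO-O3 replicate 1 or 3 ended it. In WT lungs Pgm3 and Layn were called in 15 of 21 each. Removing WT-Air replicate 1 or WT-O3 replicate 2 ended both calls, WT-Air replicate 3 or WT-O3 replicate 3 that of Pgm3, and WT-Air replicate 2 or WT-O3 replicate 1 that of Layn. Myd88 was called in 17 of 21 in each genotype, and its call ended without Nfkb1KO-O3 replicate 1 in Nfkb1-deficient lungs and without WT-O3 replicate 1 or 2 in WT lungs. Adamts4 in WT lungs was called in 18 of 21 and also lost its call without WT-O3 replicate 1 or 2.

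**Figure D4:**
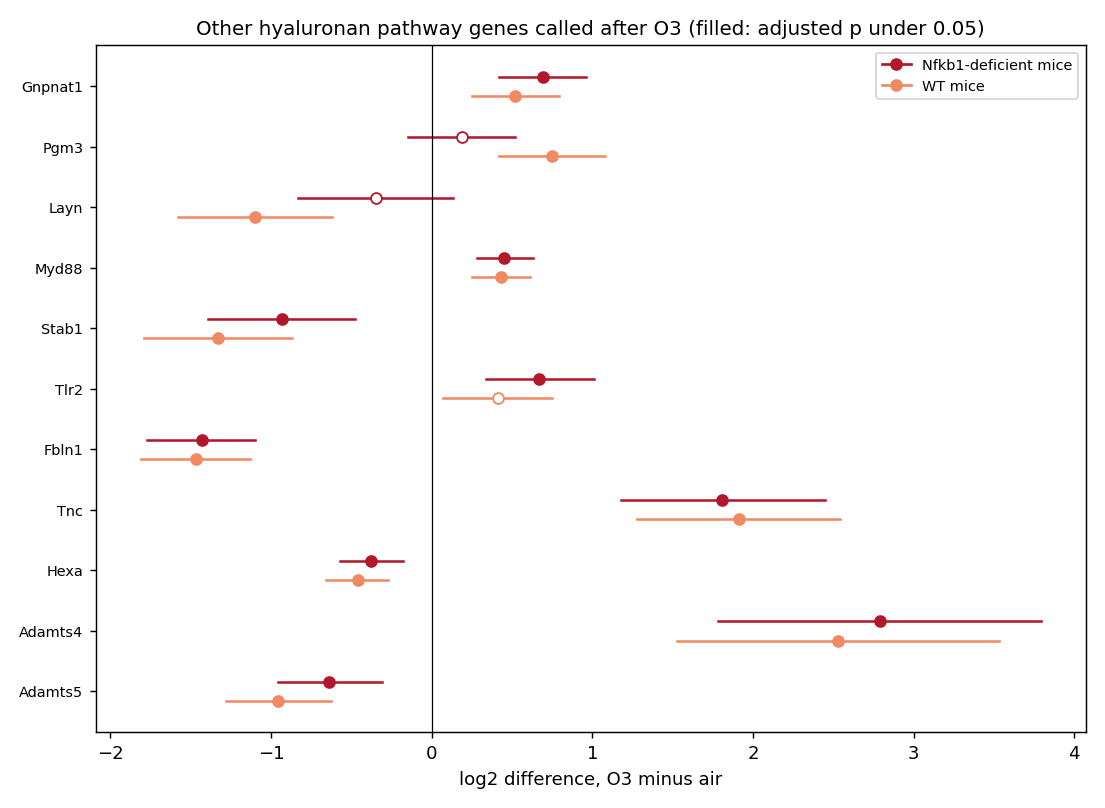
Log2 difference of O3 minus air (x axis) for the 11 listed pathway genes, other than the members, that were called in at least 1 genotype (y axis), with Nfkb1-deficient mice above WT mice in each row. Points are differences, lines are 95% intervals, and a filled point has an adjusted p under 0.05. Adamts4 lies farthest right, at 2.79 and 2.53, and Fbln1 farthest left, at -1.43 and -1.47.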

How the data were processed

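Signal intensities per probe set, deposited by the authors on a linear scale, had been computed with MAS5 in Affymetrix Expression Console (versions not given in the sources used here) and scaled to a trimmed mean of 500 per array. A floor of 1 was applied, then log2, then quantile normalisation over the 12 arrays. After 64 control probe sets were set aside, a probe set was kept if it lay above the 20th percentile in at least 1 array (42559 of 45037). Gene symbols came from the platform annotation, and 34754 of 34958 probe sets with 1 symbol were found in RefSeq (GRCm38.p6).

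Group means were estimated with limma 3.58.1 in R 4.3.3, with the spread moderated along a mean-dependent trend, and p-values were adjusted by Benjamini-Hochberg. A probe set was called at an adjusted p under 0.05. Where an array of the dimmer group was at or below the lower limit (the 20th percentile, log2 4.37), a fold is a lower bound, computed with values raised to that limit. That bound takes no account of the spread between mice. The procedure was tested on simulated data. An exact test of 3 against 3 arrays cannot give a two-sided p below 0.1. All member probe sets are reported, with array values for those that turn a result, together with the other pathway genes called in any comparison, up to 4 per list by smallest p. A few uncalled genes were named after their values were seen. For members whose brightest probe set was called, the most similar genes were to be named, and there was none. The members and lists were chosen with earlier results of these data known. Replicates are separate mice per the labels, and 3 arrays per group limit precision. Alternatives were other normalisations, filters, models, gene summaries and arrays left out.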

Additional observations from a re-analysis of the deposited data

How the results depend on the processing

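Each result was recomputed with 1 choice changed at a time, and no member changed direction among those with an unadjusted p under 0.05. In WT lungs the 1 called hyaluronan probe set after O3 (Vcan 1421694_a_at) became 0 with 1 probe set per gene, 0 with each gene's probe sets averaged, 0 with arrays centred on medians and 0 with no trend in the spread, and 2 (with Cd44 1452483_a_at) with a stricter filter on low signals, with array weights and with only the compared groups in the fit. Leaving out 1 array at a time gave 0 to 3, with 3 without Nfkb1KO-Air replicate 1. In Nfkb1-deficient lungs it gave 0 to 1, the 1 being Vcan 1427257_at without Nfkb1KO-Air replicate 3. Over both genotypes, with 3 in the fit reported, the count was 1 with 1 probe set per gene (Has3), 1 with probe sets averaged (Cd44, its dim probe set included), and 3 to 5 with 1 array left out, 5 without Nfkb1KO-O3 replicate 2. Without Nfkb1KO-Air replicate 1 and WT-Air replicate 3 together, the 1 call in WT lungs was Cd44 1452483_a_at (adjusted p = 0.019) in place of Vcan. The methods' t-test in air gave 1 member (Has3) and 2399 probe sets in all at an unadjusted p under 0.05, and 0 after Benjamini-Hochberg. With arrays centred on medians, the median difference of all probe sets was -0.14 for genotype in air, against -0.01 in the fit reported. It was 0.16 for O3 in Nfkb1-deficient lungs and 0.17 for the interaction, against 0 for both. Calls among all probe sets were 620 in place of 1527 for O3 in Nfkb1-deficient lungs and 137 in place of 1375 in WT lungs. For genotype in air there were 16 in place of 78. With centring, 94.2% of O3 calls in Nfkb1-deficient lungs were higher (951 of 1527 in the fit reported). In WT lungs 86.9% were (914 of 1375), and for genotype in air 43.8% (50 of 78). The causes were not tested.

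The replicate numbers are shared by the groups, and the labels do not say that they pair the mice. A correlation of deviations over 0.1 was seen in 0 of 18 same-numbered pairs, and 1 of 12 arrays correlated best with its own number. These correlations cannot show whether mice of the same number shared a cage, litter or day. With the replicate block, 0 members were called in WT lungs (Vcan 1421694_a_at 1.18, adjusted p = 0.067), and 1038 in place of 1375 probe sets in all.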

Other observations

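The 2 probe sets shared by Hyal1 and Naa80 could not be assigned to either gene. Probe set 1419213_at had log2 signals of 8.68, 8.74 and 8.73 in Nfkb1KO-O3 lungs, 8.84, 8.63 and 8.61 in WT-O3 lungs, 9.02, 8.85 and 8.9 in Nfkb1KO-Air lungs, and 8.52, 8.87 and 8.7 in WT-Air lungs. Its O3 difference was -0.21 ± 0.13 in Nfkb1-deficient lungs (adjusted p = 0.45), where O3 and air did not overlap, and -0.01 ± 0.13 in WT lungs. Probe set 1449954_at lay between 8.85 and 9.65, with O3 differences of 0.11 ± 0.17 in Nfkb1-deficient and 0.08 ± 0.17 in WT lungs, and neither probe set was called in any comparison.

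The 8 measured markers of neutrophils, a cell type that carries Cd44, had a median genotype difference of 1.21 after O3 and 0.97 in air. After O3, 2 of these markers were called higher in Nfkb1-deficient lungs, where 0.626% of all genes were called. In air 1 of these markers was called higher, where 0.262% of all genes were called. The summed signals of the markers were 3250 to 9720 in Nfkb1KO-O3, 1790 to 3860 in WT-O3, 7160 to 10300 in Nfkb1KO-Air and 1940 to 9230 in WT-Air lungs. The genotype difference of Cd44 1452483_a_at was -0.13 ± 0.21 after O3 and -0.05 ± 0.21 in air. The part of neutrophils in the Cd44 signal was not tested.

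Cd14, a co-receptor of Toll-like receptors, differed by genotype in air by 1.05 ± 0.22 without a call (adjusted p = 0.095).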
